A study of Mus musculus with 16 samples.

Results

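Hair follicle stem cells labelled aHFSC were compared with interfollicular epidermal cells (IFE) of the same ages and genotypes, on 4 arrays of each, 8 of the 16 arrays of a mouse skin series. The members were chosen by their labels alone: the 4 aHFSC arrays are young control, young hCOL17A1, old WT and old hCOL17A1, and each was paired with the IFE array of its age and genotype. The 4 arrays labelled tHFSC of the same ages and genotypes served to ask which differences between follicle and epidermis persisted in aHFSC and which closed. The labels do not spell out the abbreviations tHFSC and aHFSC. The series as a whole concerns stem cell divisions in hair follicle regeneration and aging.

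The hair follicle bulge holds slow-cycling stem cells that stay quiet in the resting phase of the hair cycle and divide when a new hair starts to grow, while basal cells of the interfollicular epidermis divide continuously to renew the skin surface. Bulge cells are known for the transcription factors LHX2, SOX9, TBX1 and TCF7L1 and for secreted inhibitors of BMP and Wnt signalling. Cells that enter the cycle switch on the replication licensing proteins of the MCM family, and later the proteins of the mitotic spindle.

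Young mice were 12 weeks and old mice 25 to 26 months old. Genotypes were given as WT (C57BL/6) or as hCOL17A1 tg, transgenic for COL17A1, the transmembrane collagen of hemidesmosomes; its promoter was not given. The young control HFSC mice were WT and had received 2.5 mg of RU486 for 5 days at 8 weeks, and their aHFSC were taken 3 days after plucking. The labels of the young WT IFE, which stands for control, and of the hCOL17A1 and old groups mention neither, although the common protocol names topical RU486 or depilation by hand. The sort took cells high in CD34 and ITGA6 and negative for Sca1 as HFSC, and cells high in both ITGA6 and Sca1 as IFE, so Cd34, Itga6 and Ly6a (Sca1) are not findings here. Each group is 1 array, and nothing says whether an array holds 1 animal or a pool. The p-values below therefore measure the scatter of the 12 arrays around an additive model of cell state and pair, not the spread between animals. In such bulk samples, fewer cells of a type and less RNA per cell cannot be told apart.

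Levels are log2 of the processed signal after subtraction of each array's 75th percentile, which is therefore 0, and they are compared only within a probe. The share of probes well above background was 73.8% to 79.8% on most of the 12 arrays, against 68.8% on the old hCOL17A1 tHFSC array and 59.1% on the old hCOL17A1 aHFSC array. The number of arrays limits the precision. The 4 young aHFSC and tHFSC arrays lie on another slide than the 4 old ones and the 4 IFE arrays, so the old pairs lie within 1 slide and the young pairs cross slides.

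The 3 young hCOL17A1 arrays stood apart in single genes, and the IFE array also in its correlations. The young hCOL17A1 IFE array correlated with the other IFE arrays at 0.919 to 0.926 across genes, while those correlated with each other at 0.975 to 0.979. It carried follicle genes: Lgr5 stood at -0.91 there, against -6.44 to -6.29 on the other IFE arrays. The young hCOL17A1 aHFSC array in turn carried epidermal genes, with Ppp2r2c at 1.70, against -5.13 to -3.42 on the other aHFSC arrays. On the tHFSC array Ppp2r2c stood at 2.11, against -3.70 to -3.26. The correlations did not single out these HFSC arrays. They were 0.899 to 0.940 with the other aHFSC arrays, which had 0.921 to 0.951 with each other. For tHFSC they were 0.908 to 0.922, against 0.918 to 0.931. Follicle genes in IFE and epidermal genes in HFSC shrink the difference in that pair, and their source was not tested. The whole-table counts are given with and without these 3 arrays.

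Of 31279 genes tested, 735 differed between aHFSC and IFE at a limma adjusted p under 0.05 (Benjamini-Hochberg), which is 2.35%. Of these, 331 (1.06%) were higher and 404 (1.29%) lower in aHFSC, and all 735 had the same sign in all 4 pairs. Without the young hCOL17A1 arrays the counts were 430 higher and 407 lower. The median gene differed by -0.16 between aHFSC and IFE, and by -0.02 between tHFSC and IFE. tHFSC differed from IFE in 1234 genes (3.95%), with 442 (1.41%) higher and 792 (2.53%) lower in tHFSC. aHFSC differed directly from tHFSC in 20 genes (0.0639%), with 13 (0.0416%) higher and 7 (0.0224%) lower in aHFSC. Without the young hCOL17A1 arrays the tHFSC-IFE counts were 562 higher and 819 lower, and no gene passed between aHFSC and tHFSC.

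A difference was counted as persisting where tHFSC and aHFSC both differed from IFE with the same sign. It was counted as closing where tHFSC differed from IFE, aHFSC did not, and aHFSC differed from tHFSC in the opposite direction. Of the 1234 genes, 525 (42.5%) persisted, 243 of them higher and 282 lower than in IFE. By the same rule 12 (0.972%) closed, none turned to the opposite sign, and 697 (56.5%) could be placed in neither class. Without the young hCOL17A1 arrays 602 persisted and 0 closed. Over the 1234 genes the median size of the difference from IFE was 1.54 in aHFSC and 2.26 in tHFSC. The HFSC comparisons share the IFE arrays, so these counts carry no test of their own. Groups of 4 arrays are described below as overlapping or not. Over all genes, aHFSC lay wholly above IFE in 3.08% and wholly below it in 6.12%, tHFSC above IFE in 5.72% and below in 8.66%, and aHFSC above tHFSC in 2.89% and below in 3.14%.

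Most bulge stem cell genes that differed in tHFSC persisted. Of 24 bulge genes measured, 15 were higher in aHFSC than in IFE and none was lower. These 15 are also 15 of the 17 that were higher in tHFSC, or 88.2%, beside 42.5% over all genes; Fgf18 and Foxc1 could be placed in neither class. The list's median difference from IFE was 3.56 in aHFSC and 4.35 in tHFSC. Over the 1234 genes the median size was 1.54 and 2.26. Larger differences pass the test more often, and the part of size in the 88.2% was not tested. By pair, its median in aHFSC was 3.87 in young control, 2.77 in young hCOL17A1, 3.47 in old WT and 3.37 in old hCOL17A1 mice. Cd34, a sort gene, is 1 of the 15. Both HFSC states passed the same gate for CD34, ITGA6 and Sca1, and its part in this persistence was not tested.

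Tbx1, which encodes a T-box transcription factor of bulge cells, showed the largest difference past the test among genes with an official symbol. Its level on the young control, young hCOL17A1, old WT and old hCOL17A1 arrays, the order used throughout, was 6.19, 5.67, 6.12 and 6.32 in aHFSC, 5.92, 5.54, 6.48 and 6.79 in tHFSC and -3.99, -0.42, -4.19 and -3.62 in IFE. The HFSC arrays lay together and above every IFE array, and the young hCOL17A1 IFE array lay above the other IFE arrays. The difference was 9.13 between aHFSC and IFE (SE 0.73, adjusted p = 0.0005554). The probe maps to chr16:18581807-18581866 on mm9.

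Lhx2, a LIM-homeodomain factor that keeps follicle stem cells from premature activation, had levels of 5.53, 4.83, 5.42 and 5.80 in aHFSC, 5.79, 5.03, 5.43 and 6.46 in tHFSC and -2.26, -1.10, -2.49 and -1.48 in IFE. The groups did not overlap with IFE, and aHFSC differed from it by 7.23 (SE 0.36, adjusted p = 0.0001015). Sox9, which specifies bulge stem cells, stood at 5.00, 4.48, 4.58 and 5.46 in aHFSC, 5.33, 4.62, 4.82 and 5.64 in tHFSC and -0.12, 1.12, 0.11 and 0.51 in IFE. aHFSC differed from IFE by 4.48 (SE 0.32, adjusted p = 0.0003343), with no overlap. Neither factor differed between aHFSC and tHFSC past the test (adjusted p = 0.8143 for Lhx2 and 0.8399 for Sox9).

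Lgr5, an R-spondin receptor that marks cycling follicle stem cells, had levels of 3.70, 3.08, 3.96 and 4.13 in aHFSC, 3.52, 2.80, 3.73 and 4.02 in tHFSC and -6.44, -0.91, -6.38 and -6.29 in IFE. Only the young hCOL17A1 IFE array had it well above background. The aHFSC difference was 8.72 (SE 1.07, adjusted p = 0.004448), but 3.98 in the young hCOL17A1 pair and 10.14 to 10.41 in the other pairs. Tcf7l1, a repressor of Wnt targets in bulge cells, was below background throughout IFE, and at least 7.72-fold higher in aHFSC (adjusted p = 0.001364). Wif1, a secreted Wnt inhibitor, was likewise at least 5.99-fold higher (adjusted p = 0.001963). These folds are bounds under the main processing only. Over the alternatives run, the log2 difference fell as low as 1.25 for Tcf7l1, 0.92 for Wif1 and 1.02 for Lgr5. Each of these calls was lost in 1 of 20 alternatives.

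Krt15, often used as a bulge marker, did not separate the sorted populations on these arrays. Its level was 6.19, 5.93, 5.92 and 6.67 in aHFSC, 6.66, 6.41, 6.52 and 6.75 in tHFSC and 6.53, 6.61, 6.88 and 6.39 in IFE, with overlapping groups. The aHFSC difference of -0.43 did not pass (SE 0.19, adjusted p = 0.3853).

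**Figure D1:**
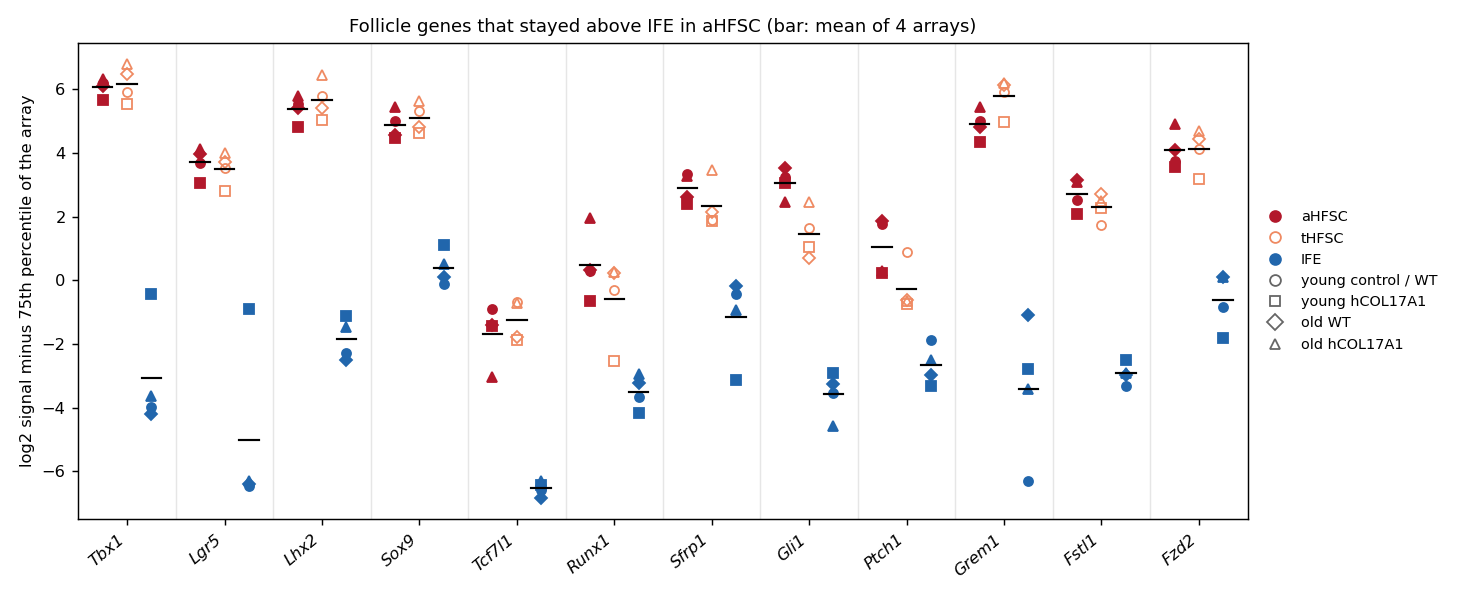
Level of genes that differed from IFE in both HFSC states, as log2 signal less the array's 75th percentile (vertical axis), in aHFSC, tHFSC and IFE (left to right); each point is 1 array, its shape gives the pair, and the bar is the mean of 4 arrays. Tbx1 and Lhx2 lie between 4.83 and 6.79 on all 8 HFSC arrays and below 0 on all 4 IFE arrays, where the young hCOL17A1 array is the highest for both.

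Among the highest genes outside the bulge list were Dab2, an endocytic adaptor, Shisa2, an endoplasmic reticulum protein that restrains Wnt and FGF receptors, and Cald1, an actin-binding protein. Dab2 had levels of 2.83, 1.71, 2.19 and 3.91 in aHFSC, 4.25, 4.16, 5.21 and 5.20 in tHFSC and -6.27, -5.86, -6.73 and -6.28 in IFE. No IFE array had it well above background, and it was at least 157-fold higher in aHFSC (adjusted p = 0.0001015). Every aHFSC array lay below every tHFSC array for Dab2, but that difference of -2.05 did not pass (SE 0.44, adjusted p = 0.1392). Shisa2, Cald1 and Hoxd8 were also below background on all IFE arrays, and were at least 44.0-fold, 75.7-fold and 47.7-fold higher in aHFSC. These bounds hold under the main processing only. Over the alternatives run, the log2 difference fell as low as 4.32 for Dab2, 3.01 for Shisa2, 3.55 for Cald1 and 2.87 for Hoxd8, with no call lost.

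The Hedgehog pathway showed the same persistence. Hedgehog ligands relieve the inhibition by the receptor PTCH1 and activate GLI transcription factors, and GLI1 and PTCH1 are themselves target genes. Of 11 genes measured, 4 were higher in aHFSC and none lower, and all 4 (Gli1, Gli2, Gli3 and Ptch1) had also been higher in tHFSC. Gli1 had levels of 3.24, 3.07, 3.53 and 2.46 in aHFSC, 1.65, 1.06, 0.69 and 2.47 in tHFSC and -3.54, -2.91, -3.26 and -4.56 in IFE. All HFSC arrays lay above all IFE arrays, and the aHFSC difference was 6.64 (SE 0.50, adjusted p = 0.000388). Over the alternatives run, the Gli1 difference fell as low as 0.89, and its call was lost in 1 of 21. The aHFSC and tHFSC ranges of Gli1 touched, and their difference of 1.60 did not pass (SE 0.50, adjusted p = 0.315). Ptch1 stood at 1.78, 0.24, 1.87 and 0.29 in aHFSC, 0.89, -0.72, -0.61 and -0.65 in tHFSC and -1.87, -3.31, -2.96 and -2.50 in IFE. It overlapped between the HFSC states but not with IFE, from which aHFSC differed by 3.71 (SE 0.35, adjusted p = 0.001124).

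In the BMP and TGF-beta family, genes of either direction passed. BMP ligands hold bulge cells at rest, and gremlin, follistatin and their relatives bind such ligands outside the cell. Of 27 genes measured, 8 were higher and 2 lower in aHFSC than in IFE, and all 7 that differed in tHFSC persisted. The ligand Bmp4 was lower in aHFSC, at -1.18, -1.24, -1.52 and -2.86 in aHFSC, -1.37, 0.46, -1.01 and -1.26 in tHFSC and 3.90, 4.68, 3.42 and 3.95 in IFE. The HFSC arrays did not reach the IFE range, and the aHFSC difference was -5.69 (SE 0.38, adjusted p = 0.0002839). Over the 20 alternatives run, the Bmp4 difference shrank to as little as -1.01, with no call lost. Bmp2 was also lower in aHFSC, by -4.31 (SE 0.90, adjusted p = 0.04438), a call lost in 11 of 20 alternatives, and Bmp7 stood at -0.45, which did not pass.

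Among the antagonists, Grem1, Fst and Fstl1 were higher, while Nog, Chrd and Fstl3 did not pass. Grem1, which encodes the BMP antagonist gremlin, stood at 5.00, 4.34, 4.81 and 5.45 in aHFSC, 5.91, 4.96, 6.13 and 6.20 in tHFSC and -6.31, -2.78, -1.09 and -3.42 in IFE. IFE varied widely but never approached the HFSC arrays, and the aHFSC difference was 8.30 (SE 0.79, adjusted p = 0.001115). Fst (follistatin, which binds activins) was higher by 2.58 and the follistatin-like Fstl1 by 5.63. Tgfb3 and Inhbb, a TGF-beta ligand and an activin subunit, were higher in aHFSC by 3.34 and 2.51 and did not differ past the test in tHFSC. The direct aHFSC-tHFSC difference did not pass for Tgfb3 or Inhbb (adjusted p = 0.4854 and 0.2873).

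In the Wnt pathway 3 ligands and a target gene were lower in aHFSC, while 2 receptors were higher. Of 22 genes measured, 2 were higher and 4 lower in aHFSC, and 6 of the 7 that differed in tHFSC persisted; Wnt4 could be placed in neither class. Wnt3 was lower by -6.36, Wnt10a by -2.79 and Wnt10b by -2.24, while the receptors Fzd2 and Fzd1 were higher by 4.69 and 2.42; the receptor Fzd10, outside the list, was lower by -5.84. Axin2, a feedback inhibitor and target of the pathway, had levels of -0.14, -0.04, -0.50 and 0.28 in aHFSC, 0.07, 0.17, -0.34 and -0.46 in tHFSC and 1.84, 2.73, 1.79 and 1.92 in IFE. HFSC of both states lay within a narrow range below IFE, and the aHFSC difference was -2.17 (SE 0.28, adjusted p = 0.00518).

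Part of the epidermal side persisted as well. Of the 792 genes lower in tHFSC than in IFE, 282 persisted, 8 closed and 502 could be placed in neither class. Of the 442 genes higher in tHFSC, 243 persisted, 4 closed and 195 could be placed in neither class. Ppp2r2c, a regulatory subunit of protein phosphatase 2A, showed the lowest difference among genes with an official symbol, at -8.11 (SE 1.05, adjusted p = 0.005437). Its levels were -4.10, 1.70, -3.42 and -5.13 in aHFSC, -3.26, 2.11, -3.70 and -3.69 in tHFSC and 5.31, 5.23, 5.27 and 5.69 in IFE. The young hCOL17A1 arrays of both HFSC states stood well above the other HFSC arrays and still below IFE. The receptor genes Il20ra and Il22ra2, for cytokines of the IL-20 and IL-22 group, were lower by -6.17 and -6.39, the potassium channel gene Kcnj16 by -6.51 and the sodium-calcium exchanger gene Slc24a3 by -5.94. Of the 10 lowest genes, Tox3 and Fzd10 differed from IFE in aHFSC but not past the test in tHFSC (adjusted p = 0.07061 and 0.05934).

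Of 19 interferon and antigen presentation genes measured, 5 were lower and none higher in aHFSC, and 5 of the 6 that were lower in tHFSC persisted; Tap1 could be placed in neither class. Psmb8, an immunoproteasome subunit, had levels of 0.60, 0.28, 1.04 and 2.02 in aHFSC, 0.34, -0.64, 1.34 and 0.60 in tHFSC and 2.59, 1.75, 3.75 and 3.59 in IFE. One aHFSC array, of old hCOL17A1 mice, exceeded the lowest IFE array. Within pairs each aHFSC array was lower, and the difference was -1.93 (SE 0.31, adjusted p = 0.01435). B2m, the light chain of class I molecules, was lower by -1.45, H2-K1 by -1.84, Nlrc5, the activator of class I genes, by -1.65 and Oas1a by -2.73. Each of these 5 calls was lost in 7 to 10 of the 20 or 21 alternatives run for it, always with the same sign. Of 20 genes of inflammatory secretion, Tnfaip3, an inhibitor of NF-kappaB signalling, and Mmp3, a matrix protease, were lower in aHFSC (-2.99 and -2.78), and both persisted.

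Differentiation genes differed less. Of 28 measured, 1 was higher and 4 lower in aHFSC, and 5 of the 8 that differed in tHFSC persisted. Gata3 and Klf4, transcription factors of the differentiating epidermis, were lower by -2.01 and -1.69, and the desmosomal cadherin Dsg1a and Krtdap by -3.45 and -1.67. Calml3, a calmodulin-like protein of keratinocytes, was higher by 3.73. In the upper follicle list of 13 genes, Krt17 was higher and Ly6d and Defb1 were lower, and all 3 persisted. Of 15 genes of the hair germ, matrix and hair lineage, only the hair keratin Krt85 differed, lower in both HFSC states. None of 12 basal keratin and adhesion genes differed between aHFSC and IFE, while 5, Krt5 and Krt14 among them, were lower in tHFSC and could be placed in neither class.

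**Figure D2:**
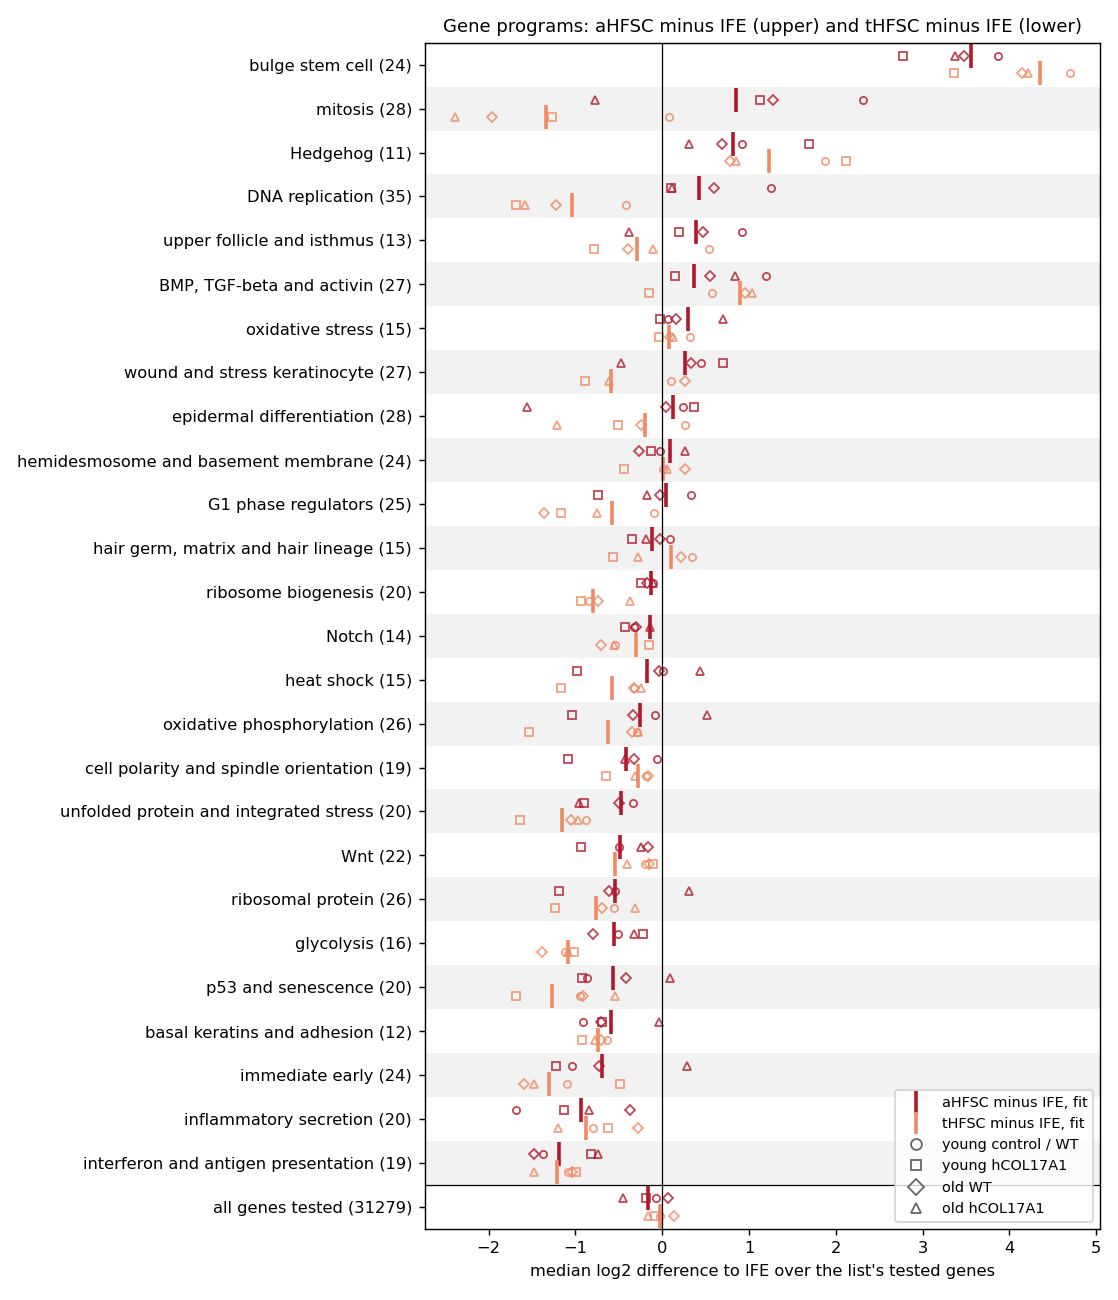
Median log2 difference over the measured genes of each list (horizontal axis) for aHFSC minus IFE (upper mark of each list) and tHFSC minus IFE (lower mark); the thick mark is the median of the fitted differences and the open symbols are the medians within each of the 4 pairs. The bulge list lies far above 0 in both (3.56 and 4.35), while the mitosis list is at 0.85 in aHFSC and -1.34 in tHFSC.

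Proliferation genes differed from this: as lists they stood below IFE in tHFSC and at or above IFE in aHFSC. Of 35 DNA replication genes, 5 stood higher in tHFSC than in IFE by value, against 29 in aHFSC, and 34 stood higher in aHFSC than in tHFSC. Over all genes, 48.3% stood higher than in IFE in tHFSC and 37.1% in aHFSC, and 39.2% stood higher in aHFSC than in tHFSC. The list's median difference from IFE was 0.42 in aHFSC and -1.04 in tHFSC, and the median difference of aHFSC minus tHFSC was 1.46, against -0.12 over all genes. Of 28 mitosis genes, 25 stood higher than in IFE in aHFSC and 1 in tHFSC, and all 28 stood higher in aHFSC than in tHFSC. The mitosis medians were 0.85 in aHFSC minus IFE, -1.34 in tHFSC minus IFE and 2.40 in aHFSC minus tHFSC.

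Few of these genes passed the test one by one. Among the 35 replication genes, 6 were lower in tHFSC than in IFE at an adjusted p under 0.05; Mcm6 and Dscc1 closed, Gins3 persisted, and Cdt1, Dnmt1 and Mcm3 could be placed in neither class. No mitosis gene differed between tHFSC and IFE past the test. Over 88 genes of DNA replication, mitosis and G1 phase together, 10 differed in tHFSC, of which 3 persisted, 2 closed and 5 were in neither class. A fit of all 16 arrays, which adds the young Col17a1 and aPKC conditional knockout HFSC arrays, placed 14 genes: 4 persisted, 10 closed and none was left in neither class. In that fit 70 of all 2027 genes that differed in tHFSC closed. It called 20 of the 88 genes higher in aHFSC than in tHFSC and none lower, beside 0.39% and 0.16% of all genes. Against IFE it called 1.64% of all genes higher and 2.69% lower in aHFSC, and 2.12% higher and 4.36% lower in tHFSC.

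Mcm6, a subunit of the MCM helicase loaded at replication origins, closed, though its call against tHFSC was lost in 12 of 21 alternatives. Its level was 6.38, 5.85, 6.50 and 6.37 in aHFSC, 5.01, 4.39, 4.30 and 4.20 in tHFSC and 5.68, 6.07, 6.01 and 6.04 in IFE. The tHFSC arrays all lay below both other groups, and aHFSC overlapped with IFE. aHFSC exceeded tHFSC by 1.80 (SE 0.23, adjusted p = 0.04312) and IFE by 0.32, which did not pass (SE 0.23, adjusted p = 0.6161). Dscc1, part of the complex that loads the replication clamp and sets sister chromatid cohesion, stood at -0.99, 0.01, -1.86 and -2.34 in aHFSC, -6.62, -6.59, -5.67 and -5.22 in tHFSC and -2.65, -1.54, -1.95 and -1.71 in IFE. It was not well above background on the tHFSC arrays and was at least 10.4-fold higher in aHFSC (adjusted p = 0.03031), while aHFSC and IFE overlapped (difference 0.67, SE 0.55, adjusted p = 0.6754). The Dscc1 call against tHFSC was lost in 12 of 20 alternatives.

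Cdt1, which licenses origins together with CDC6, had levels of 1.31, 1.68, 1.57 and -0.20 in aHFSC, -1.25, -3.28, -2.95 and -2.69 in tHFSC and 0.31, 1.28, 0.77 and 1.08 in IFE. The tHFSC deficit against IFE passed (-3.40, adjusted p = 0.009789), the gain in aHFSC over tHFSC narrowly did not (3.63, SE 0.54, adjusted p = 0.06522), and in the fit of all 16 arrays it did (3.07). Rrm2, the inducible subunit of ribonucleotide reductase, had no such deficit: its tHFSC level lay above IFE in every pair but young hCOL17A1. It stood at 3.69, 2.79, 2.96 and 2.64 in aHFSC, 1.97, 1.49, 1.32 and 1.19 in tHFSC and 0.29, 1.92, 0.42 and 0.65 in IFE. Its aHFSC arrays lay above all others, and aHFSC exceeded IFE by 2.20 (SE 0.38, adjusted p = 0.02022).

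Zwilch, a kinetochore protein of the spindle checkpoint, was the 1 mitosis gene past the test against IFE. It stood at 1.46, 2.20, 0.50 and 0.77 in aHFSC, -3.00, -2.42, -2.64 and -2.64 in tHFSC and -2.16, -0.96, -0.93 and -1.34 in IFE. aHFSC lay above both groups without overlap, by 2.58 over IFE (SE 0.37, adjusted p = 0.00885) and by 3.91 over tHFSC (SE 0.37, adjusted p = 0.03031). Mki67, a chromosome surface protein of dividing cells, had levels of 4.31, 3.32, 4.18 and 2.68 in aHFSC, 2.45, 0.71, -1.82 and 0.82 in tHFSC and 1.94, 2.03, 2.44 and 3.35 in IFE. In the old hCOL17A1 pair the aHFSC array lay below IFE, and the mean difference of 1.18 did not pass (adjusted p = 0.5653).

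In the mitosis list the old hCOL17A1 pair had the opposite sign to the other pairs. The median of aHFSC minus IFE by pair was 2.31 in young control, 1.13 in young hCOL17A1, 1.28 in old WT and -0.78 in old hCOL17A1 mice. The gain of aHFSC over tHFSC was 2.31, 2.64, 3.10 and 1.46 in the same order, so it had 1 sign in all 4 pairs. The old hCOL17A1 aHFSC array is the one with the fewest probes above background, and its part in this was not tested.

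G1 phase regulators did not move as a block. Of 25 measured, 4 differed between tHFSC and IFE; Mycn (higher) and Myc (lower) persisted, and Cdk4 and E2f2 could be placed in neither class. Mycn, a relative of MYC active in growing follicles, had levels of 4.89, 3.93, 4.67 and 3.78 in aHFSC, 2.77, 0.08, -0.13 and 3.81 in tHFSC and -4.86, -1.85, -3.30 and -1.49 in IFE. The old hCOL17A1 tHFSC array lay within the aHFSC range, and the gain of aHFSC over tHFSC did not pass (2.69, adjusted p = 0.368).

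**Figure D3:**
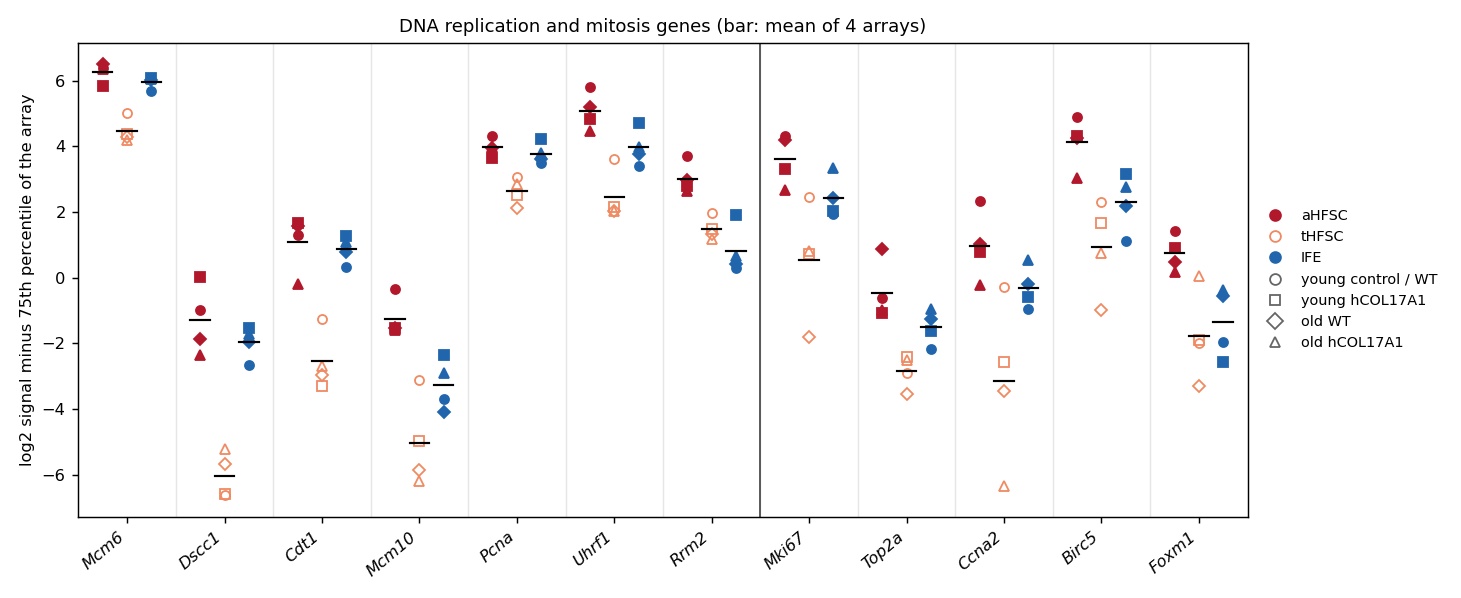
Level of proliferation genes, as log2 signal less the array's 75th percentile (vertical axis), in aHFSC, tHFSC and IFE (left to right), with 1 point per array, the shape for the pair and a bar at the mean of 4 arrays. Mcm6 lies at 4.20 to 5.01 in tHFSC and at 5.68 or above in every aHFSC and IFE array.

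Upstream sequences of replication and mitosis genes were searched because these genes moved together. The 250 bases before each gene's start, from RefSeq on GRCm38.p6, were scanned on both strands for an E2F-type site, TTTCCCGC or TTTGGCGC, and for CCAAT, the NF-Y box. The E2F-type letters stood in 427 of 32851 promoters (1.3%) and CCAAT in 11120 (33.8%). Of the replication genes with a promoter in the table, 6 of 29 (20.7%) held the E2F-type letters and 19 (65.5%) CCAAT. Of the mitosis genes, 0 of 22 held the E2F-type letters and 17 (77.3%) CCAAT, against 0 and 5 (29.4%) of 17 bulge genes. The list shares count genes with a match in any of their promoters, while the shares over all count single promoters, so the measures differ. A match is a description of the letters and not a shown binding site. Mcm6, which closed, is shown with Mcm5 as a further replication gene and Top2a, the mitotic topoisomerase gene, as the promoter rich in CCAAT. Capitals mark the E2F-type and CCAAT matches on either strand, and the windows shown leave out bases inside the annotated gene, so those of Mcm5 and Top2a hold 209 and 240 bases.
Mcm6, chr1:128359706-128359955, minus strand: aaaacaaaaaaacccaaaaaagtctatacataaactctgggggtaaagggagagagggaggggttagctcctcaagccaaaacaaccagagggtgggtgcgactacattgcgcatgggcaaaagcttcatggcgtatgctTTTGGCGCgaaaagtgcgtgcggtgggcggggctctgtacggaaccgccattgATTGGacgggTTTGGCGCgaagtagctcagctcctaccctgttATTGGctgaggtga
Mcm5, chr8:75109259-75109467, plus strand: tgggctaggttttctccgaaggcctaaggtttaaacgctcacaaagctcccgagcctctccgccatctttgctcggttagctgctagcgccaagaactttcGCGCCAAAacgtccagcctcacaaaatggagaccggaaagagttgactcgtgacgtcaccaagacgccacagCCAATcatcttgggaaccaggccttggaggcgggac
Top2a, chr11:99024200-99024439, minus strand: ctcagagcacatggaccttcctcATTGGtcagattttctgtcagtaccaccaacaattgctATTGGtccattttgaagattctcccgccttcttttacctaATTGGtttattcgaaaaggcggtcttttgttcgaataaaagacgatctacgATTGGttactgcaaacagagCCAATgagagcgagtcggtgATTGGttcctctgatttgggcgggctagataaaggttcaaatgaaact
The Mcm6 window holds 2 E2F-type and 2 CCAAT matches, the Mcm5 window 1 of each, and the Top2a window 0 and 6. Top2a levels were -0.63, -1.07, 0.86 and -0.98 in aHFSC, -2.90, -2.41, -3.54 and -2.52 in tHFSC and -2.17, -1.62, -1.25 and -0.94 in IFE.

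Most stress genes that differed between tHFSC and IFE could be placed in neither class in aHFSC. Of 121 genes in 6 stress lists, 21 differed between tHFSC and IFE, 5 higher and 16 lower. Of the 21, 4 persisted (19.0%), 1 closed and 16 could be placed in neither class. Over all genes 42.5% persisted and 56.5% could be placed in neither class. The interferon and inflammatory secretion lists are not among the 6, and there 5 of 6 and 2 of 2 such genes persisted. The median difference from IFE was -0.25 in aHFSC and -0.73 in tHFSC, beside -0.16 and -0.02 over all genes. The median difference of aHFSC minus tHFSC was 0.36, and 81 of the 121 stood higher in aHFSC, beside 39.2% of all genes.

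Gadd45a, which arrests the cycle after DNA damage and stress, was the 1 stress gene that closed. Its level was 2.13, 1.15, 1.85 and 1.28 in aHFSC, -1.15, -1.79, -2.12 and -0.81 in tHFSC and 1.50, 2.24, 1.11 and 1.19 in IFE. The tHFSC arrays lay below all others, and aHFSC and IFE overlapped fully. aHFSC exceeded tHFSC by 3.07 (SE 0.40, adjusted p = 0.04312) and differed from IFE by 0.09, which did not pass (SE 0.40, adjusted p = 0.9515). The call against tHFSC was lost in 12 of 21 alternatives.

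Of 24 immediate early genes, the first to respond to stimulation, 3 were lower in tHFSC (Fos, Nr4a1 and Zfp36) and none passed in aHFSC. Fos, a subunit of AP-1, stood at 3.51, 4.41, 4.85 and 6.11 in aHFSC, 2.37, 5.04, 2.69 and 4.16 in tHFSC and 5.89, 7.16, 5.82 and 5.90 in IFE. The old hCOL17A1 aHFSC array lay within the IFE range and the other 3 below it, and the aHFSC difference of -1.47 did not pass (SE 0.50, adjusted p = 0.2188). The list's median difference from IFE was -0.70 in aHFSC and -1.31 in tHFSC, and the aHFSC value turned positive (0.29) in the old hCOL17A1 pair alone.

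Of 20 genes of the unfolded protein and integrated stress responses, 5 were lower in tHFSC. Sesn2, a stress-induced inhibitor of mTORC1, persisted at -1.56 in aHFSC (SE 0.29, adjusted p = 0.02561), a call lost in 12 of 18 alternatives. Asns, Atf5, Hsp90b1 and Psat1 could be placed in neither class. Asns, the asparagine synthetase induced by ATF4, ranged over the 4 arrays of each state from 0.66 to 1.66 in aHFSC, from -1.74 to 0.29 in tHFSC and from 1.75 to 3.09 in IFE. The groups stepped without overlap, aHFSC between tHFSC and IFE, with aHFSC at -1.16 from IFE (SE 0.40, adjusted p = 0.2312) and at 1.80 from tHFSC (SE 0.40, adjusted p = 0.1622). The list's median of aHFSC minus IFE was negative in all 4 pairs, from -0.96 to -0.33.

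The wound and stress keratinocyte list of 27 genes split. Krt6a and Krt17, keratins of the follicle and of wounded epidermis, were higher in both HFSC states. Krt6a stood at 1.06, 1.94, 1.60 and 2.28 in aHFSC, 1.67, 2.46, 3.72 and 0.96 in tHFSC and -1.83, -4.54, -3.66 and -3.42 in IFE. It overlapped between the HFSC states and not with IFE (aHFSC difference 5.08, SE 0.70, adjusted p = 0.007159). Gjb2, a gap junction protein, differed from IFE in aHFSC (6.08, SE 1.15, adjusted p = 0.02857) and not in tHFSC. Hbegf, a growth factor for keratinocytes, and the protease gene Plau were lower in tHFSC by -4.36 and -5.12, while in aHFSC they stood at -1.33 and -0.95 from IFE, which did not pass.

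Of 15 oxidative stress genes, the glutathione peroxidase Gpx2 was higher in aHFSC (1.83, SE 0.33, adjusted p = 0.02357), a call lost in 11 of 21 alternatives. The thioredoxin reductase Txnrd1, lower in tHFSC by -2.08, stood at 0.54 from IFE in aHFSC. The rise of Txnrd1 over tHFSC missed the threshold narrowly (2.62, SE 0.36, adjusted p = 0.05683). Of 15 heat shock genes, the small chaperone Cryab persisted higher (1.29, SE 0.27, adjusted p = 0.04265), a call lost in 13 of 21 alternatives. Hsp90ab1 could be placed in neither class.

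Metabolic and ribosomal genes were called lower in tHFSC more than in aHFSC by count, a difference that was not tested. The same held over all genes, with 2.53% called lower in tHFSC and 1.29% in aHFSC. Of 16 glycolysis genes, 6 were lower in tHFSC; Slc16a3, a lactate transporter, persisted and the other 5, with Eno1 and Slc2a1 among them, could be placed in neither class. Hk2, the inducible hexokinase, was higher in aHFSC than in IFE, at 2.70, 2.09, 2.97 and 2.58 in aHFSC, 1.82, 0.43, 0.10 and 0.95 in tHFSC and 0.02, 0.30, 0.15 and -0.06 in IFE. Its aHFSC arrays lay above all others, with a difference of 2.48 from IFE (SE 0.36, adjusted p = 0.009832). The glycolysis median was -0.56 from IFE in aHFSC and -1.09 in tHFSC. Of 26 ribosomal protein genes, 4 were lower in tHFSC and 1 (Rps7) in aHFSC, and of 26 oxidative phosphorylation genes 2 were lower in tHFSC and none differed in aHFSC.

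**Figure D4:**
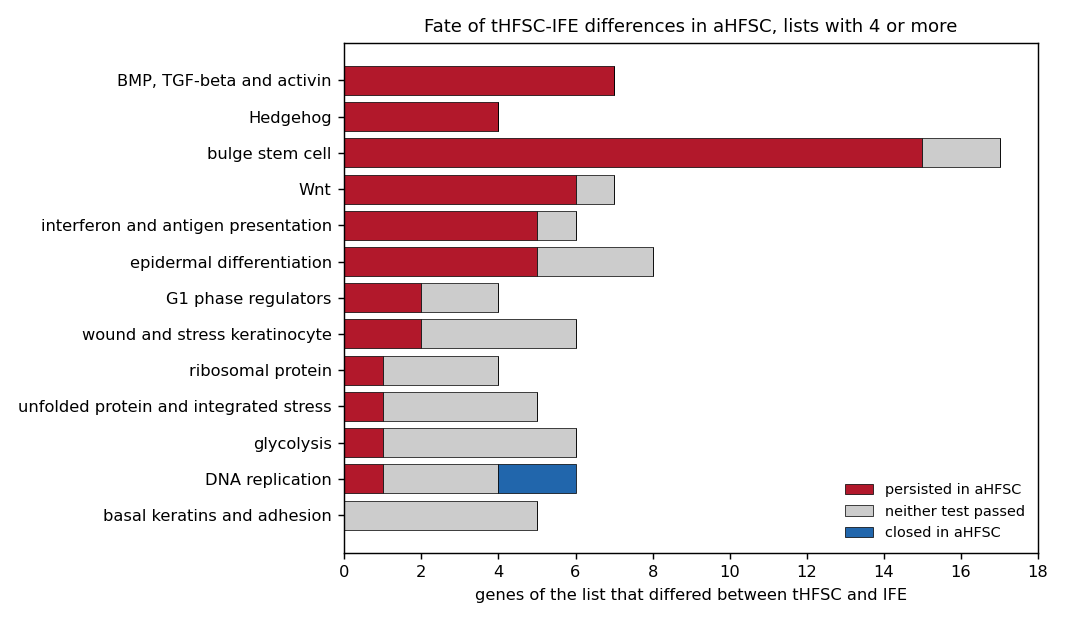
Number of genes that differed between tHFSC and IFE (horizontal axis) in each list with at least 4 such genes, split into those that persisted in aHFSC, those placed in neither class and those that closed. Of the 17 bulge genes 15 persisted and none closed, while of the 6 replication genes 1 persisted and 2 closed.

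Beyond the lists, 10 of the 12 closing genes have an official symbol. The 7 that rose over tHFSC were Dio2, Dscc1, Snx24, Tcim, Gadd45a, Ucp2 and Mcm6. Dio2, the deiodinase that activates thyroid hormone, stood at 1.75, 1.25, 3.32 and 2.15 in aHFSC, -3.02, -3.01, -2.79 and -3.40 in tHFSC and 2.09, -1.95, 0.44 and 0.03 in IFE. tHFSC lay below every other array, and the aHFSC difference was 5.18 from tHFSC (SE 0.61, adjusted p = 0.03031) and 1.97 from IFE (SE 0.61, adjusted p = 0.1754). Ucp2, a mitochondrial carrier, stood at 4.56, 4.45, 5.44 and 4.89 in aHFSC, 2.49, 2.80, 2.36 and 2.31 in tHFSC and 4.22, 4.58, 4.86 and 4.56 in IFE, with aHFSC and IFE overlapping and tHFSC below.

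Cyp26b1, Cck and Tsc2 fell below tHFSC. Cyp26b1, which degrades retinoic acid, stood at 0.28, 0.30, -1.07 and -0.78 in aHFSC, 3.79, 3.40, 3.82 and 1.94 in tHFSC and -1.08, -0.98, -1.11 and -1.14 in IFE. Every tHFSC array lay above all others, and aHFSC was -3.55 from tHFSC (SE 0.40, adjusted p = 0.03031) and 0.76 from IFE (SE 0.40, adjusted p = 0.4674). Tsc2, an inhibitor of mTORC1, was -2.60 from tHFSC (SE 0.29, adjusted p = 0.03031) and -0.38 from IFE. Cck, the gene of the peptide cholecystokinin, stood at -3.22, -3.10, -2.80 and -1.42 in aHFSC, -0.11, -0.03, 1.11 and 0.31 in tHFSC and -3.65, -3.87, -4.20 and -3.43 in IFE. Every aHFSC array lay below every tHFSC array and still above every IFE array. The difference was -2.96 from tHFSC (SE 0.39, adjusted p = 0.04804) and 1.15 from IFE, which did not pass (SE 0.39, adjusted p = 0.2203).

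A further 5 genes differed in aHFSC from both tHFSC and IFE in 1 direction, with no difference past the test between tHFSC and IFE. Bgn, the extracellular proteoglycan biglycan, stood at 3.67, 3.05, 3.78 and 3.77 in aHFSC, 0.02, -2.94, -2.02 and -1.63 in tHFSC and -2.80, -2.91, -2.82 and -2.39 in IFE. Its aHFSC arrays lay far above the rest, by 6.30 over IFE (SE 0.44, adjusted p = 0.0002907) and by 5.21 over tHFSC (SE 0.44, adjusted p = 0.02284). The others were Lap3, an aminopeptidase, at 3.27 over IFE, St6gal1, a sialyltransferase, at 3.38, Zwilch, and Zfp354b, lower by -2.19. With normexp background correction the St6gal1 difference from IFE was -0.0762 (adjusted p = 0.6634), so its direction depended on the background correction.

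**Figure D5:**
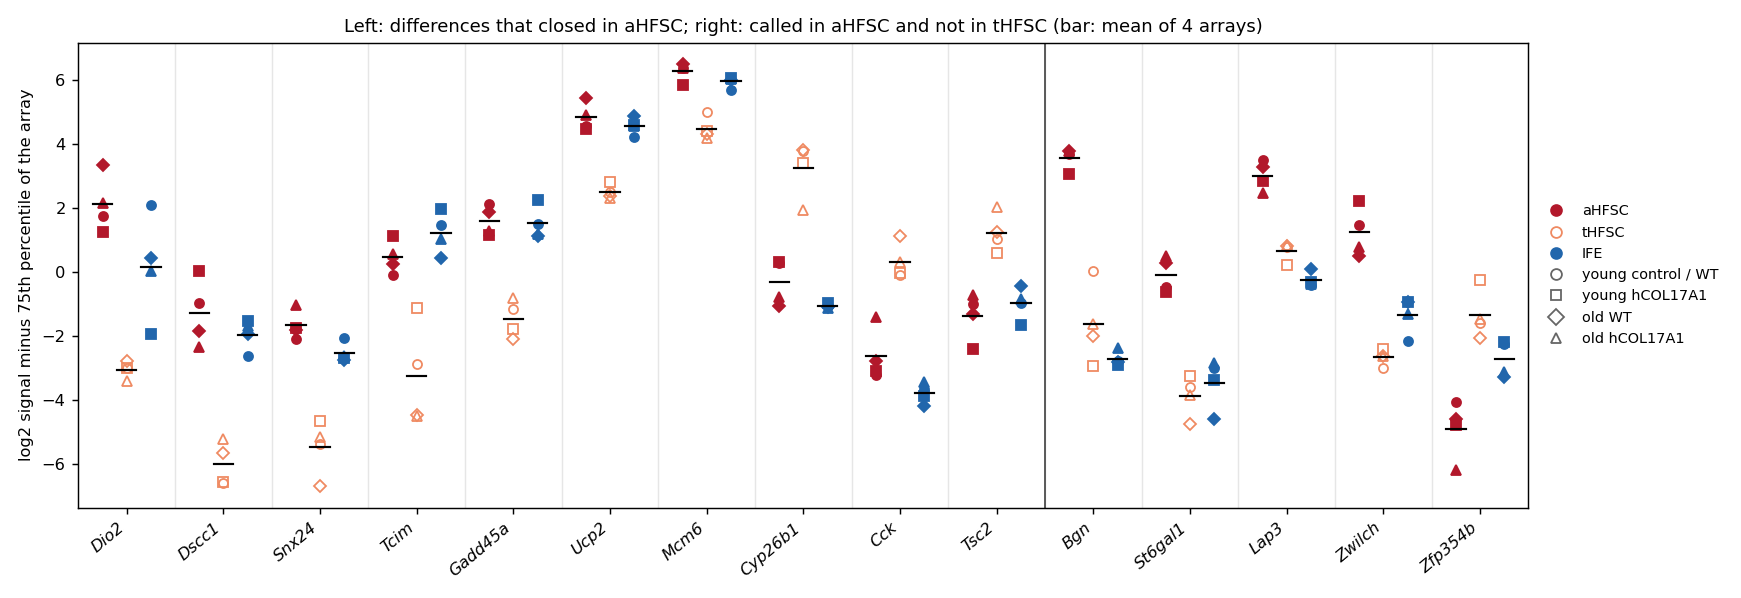
Level of genes that closed and of genes that differed in aHFSC alone, as log2 signal less the array's 75th percentile (vertical axis), in aHFSC, tHFSC and IFE (left to right), with 1 point per array, the shape for the pair and a bar at the mean. Ucp2 and Gadd45a in tHFSC lie below every aHFSC and IFE array, Cyp26b1 in tHFSC lies above them, and Bgn is at 3.05 to 3.78 in aHFSC against 0.02 or less elsewhere.

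The closing calls rest on the direct comparison of aHFSC with tHFSC, which called few genes. For the named closing genes that call was lost in 9 (Ucp2) to 15 (Tcim) of the 18 to 21 alternatives run for each. Leaving out 1 array brought the closing count to 0 for the young control, young hCOL17A1 or old WT aHFSC, the old WT tHFSC, and the young WT, old WT or old hCOL17A1 IFE. Leaving out the young hCOL17A1 IFE array raised it to 46. The medians of the replication and mitosis lists kept their signs in all 3 comparisons under every alternative run, single left-out arrays included.

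Age and transgene were tested as modifiers. No gene passed for a change of the aHFSC-IFE difference in old against young mice, or in hCOL17A1 against WT mice, by limma at an adjusted p under 0.05 (0% for each), and at an unadjusted p under 0.05 there were 1204 and 1814 genes. If no gene changed, a share of 0.05 of the 31279 genes would be expected at that unadjusted limit. Young aHFSC and the IFE arrays lie on different slides, so age and slide cannot be told apart. Of the aHFSC labels used, only young control names RU486 and plucking. In the young pairs these and the transgene cannot be told apart. Col17a1, the mouse gene of the transgene's product, stood at 6.17, 6.21, 5.85 and 6.97 in aHFSC, 7.02, 6.97, 7.21 and 7.52 in tHFSC and 7.07, 7.36, 6.92 and 6.69 in IFE. It was below IFE in 3 of 4 aHFSC pairs, and the difference of -0.71 did not pass (SE 0.24, adjusted p = 0.2152). Prkci, the aPKC lambda gene, differed by 0.12 (adjusted p = 0.9281).

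Markers of other skin cells were read on the same arrays. None of the measured markers of melanocytes, Langerhans and myeloid cells, T cells, endothelium, pericytes, Merkel cells, sebocytes, erythrocytes or adipocytes differed between aHFSC and IFE past the test. Of 6 fibroblast markers, aHFSC exceeded IFE in Fbln1 (5.53) and Col1a2 (2.09) and fell short of it in Thy1 (-4.72), all 3 persisting, while Col1a1, Col3a1 and Dcn did not pass. The summed fibroblast level, in log2, was 4.25 to 6.08 in aHFSC, 4.47 to 5.63 in tHFSC and 3.80 to 4.83 in IFE, and 1 of the 6 was below background throughout IFE. Col1a2 was lower in aHFSC than in tHFSC (-2.44, SE 0.28, adjusted p = 0.03031), while Bgn, which fibroblasts also express, was higher. The part of fibroblast RNA in the follicle-epidermis differences was not tested. Of 7 neutrophil markers only Ly6g passed, lower in aHFSC at -3.32. Of 5 dermal papilla markers only Rspo3 passed, lower at -4.02, while 3 of the 5 stood higher in aHFSC by value.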

How the data were processed

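RNA of sorted mouse skin cells was measured on 16 one-colour Agilent arrays. Per the file headers, the authors scanned and quantified the Cy3 spots with Feature Extraction 11.5.1.1 on a design of mm9 probes; the deposited processed signal is a linear intensity, background-subtracted within each array. The deposited value table holds log2 values, which match the log2 processed signal less each array's 75th percentile but for rounding. For young control tHFSC the scanner file held 46417 of 55681 probes, and the other 9264 were filled from that table, without background flags.

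Control and outlier spots were left out, log2 was taken and the 75th percentile of each array subtracted. A probe was kept if 2 or more of the 12 arrays had it well above background (49198 probes), and a gene was read from its brightest probe, which gave 31279 genes, 20368 with an official symbol; 594 probes were left out for an outlier spot. limma 3.58.1 in R 4.3.3 (lmFit and eBayes with trend, two-sided, Benjamini-Hochberg over all genes, threshold 0.05) was fitted to the 12 arrays with cell state and pair, which leaves 6 residual degrees of freedom. Where no array of a group had a probe well above background, the fold is a lower bound against the lowest signal above background. That bound holds for the main processing only. On simulated data of 31279 genes, at a log2 difference of 2 the fit called 16 of 50 true aHFSC-IFE differences and classed 21 of 50 true closings; at 4 it called 42 and classed 49.

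Genes named carry an official symbol: the 10 highest and 10 lowest past the threshold with 1 sign in all 4 pairs, up to 8 that close and up to 6 that differ in aHFSC alone in each direction, and up to 6 members of each list; other members are given as values. The lists, members and rules were chosen with earlier results of these data known. Promoters come from RefSeq (GRCm38.p6). Alternatives tried were quantile normalization, normexp background correction (offset 50), other probe filters, the mean of probes, fewer or all 16 arrays, no pairing, slide as a block and leaving out arrays. With all 16 arrays, HFSC were not paired with IFE.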

Additional observations from a re-analysis of the deposited data

Results flagged for a closer look

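Of 130 groups of 4 arrays checked for a single array far from the other 3, 14 stood out, and chance gives about 1 in 20 groups. On the old hCOL17A1 aHFSC array, which had the fewest probes above background, 4 list medians stood apart from the other aHFSC arrays. They were the unfolded protein and integrated stress list at 0.467 (others 1.15 to 1.22), the interferon list at 0.602 (others -0.25 to -0.13), the hemidesmosome list at 2.98 (others 2.25 to 2.32) and glycolysis at 4.49 (others 3.80 to 3.89). On the young hCOL17A1 IFE array the unfolded protein list stood at 2.62, against 1.53 to 1.63 on the other IFE arrays.

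The same IFE array stood above the other IFE arrays in Tbx1 at -0.42 (others -4.19 to -3.62), Lgr5 at -0.91 (others -6.44 to -6.29), Tox3 at 2.43 (others 1.09 to 1.31), Kcnj16 at 3.19 (others 1.13 to 1.24) and Prkci at 4.93 (others 3.82 to 3.93). The young hCOL17A1 aHFSC array stood above the other aHFSC arrays in Il22ra2, at 0.99 (others -4.43 to -3.73), and below them in Bgn, at 3.05 (others 3.67 to 3.78). Mcm6 was low on the young WT IFE array at 5.68 (others 6.01 to 6.07), and Lap3 was high on the old WT IFE array at 0.076 (others -0.40 to -0.33).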

How the results depend on the processing

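Counts moved by over 1.5 times under these alternatives, and the cause was not tested. The aHFSC-IFE count of 735 was 483 with probes above background on all 12 arrays, 389 with the arrays of the comparison alone, 1354 with all 16 arrays, 346 with slide as a block and 229 in the old pairs. The tHFSC-IFE count of 1234 was 804, 2027, 485 and 248 under the last 4 settings and 2589 without the old hCOL17A1 aHFSC and young hCOL17A1 IFE arrays. The aHFSC-tHFSC count of 20 was 34 with normexp, 31 with quantile normalization, 31 with the mean of probes, 0 with the comparison's arrays alone, 70 without pairing, 172 with all 16 arrays, 2 with slide, 0 in the old pairs, 93 without those 2 arrays and 0 without the young hCOL17A1 arrays, a setting chosen after seeing the data. Persisting differences (525) numbered 258 with the comparison's arrays alone, 986 with all 16 arrays, 272 with slide, 152 in the old pairs and 883 without those 2 arrays. Closing differences (12) numbered 21 with quantile normalization, 21 with the mean of probes, 36 without pairing, 70 with all 16 arrays, 45 without those 2 arrays, and 0 with the comparison's arrays alone, with slide, in the old pairs and without the young hCOL17A1 arrays. Leaving out 1 array gave 278 to 926 for aHFSC-IFE, 441 to 1596 for tHFSC-IFE, 0 to 25 for aHFSC-tHFSC, 209 to 704 persisting and 0 to 46 closing. The lowest aHFSC-IFE counts came without the young control (347) or old WT aHFSC (323) and the young WT (326), old WT (278) or old hCOL17A1 IFE (325). Normexp split the aHFSC-IFE calls into 286 higher and 713 lower, against 331 and 404, and reversed St6gal1 (-0.0762). Of the 20 highest and lowest genes, 14 stayed past the threshold under every alternative run. Of 2394 list medians, 2181 kept their sign. The fit pairs arrays by age and genotype, and without that pairing 687 genes differed between aHFSC and IFE. Beyond that block, no paired analysis was possible because each group has 1 array. The old hCOL17A1 aHFSC and tHFSC arrays, with the fewest probes above background, limit what dim probes show.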
